A study of Mus musculus with 24 samples.

Results

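The comparison described here sets mouse leukaemia cells that received a guide RNA against Mllt6 beside cells that received a non-targeting guide. It rests on 9 of the 24 RNA-seq libraries of the study: MLLT6 guide 1 and MLLT6 guide 2 with 3 libraries each, and the non-targeting control with 3. The libraries were chosen by their labels alone, and the knockout value of a gene is the mean of both guides. All 10578 genes with enough counts were tested, so the comparison shows which mRNAs differed and also how large a difference the data still allow for each gene.

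MLLT6, also called AF17, is a PHD finger protein that was found as a fusion partner of MLL in acute leukaemia. It is a close relative of MLLT10 (AF10), and both bind DOT1L, the methyltransferase that places methyl groups on lysine 79 of histone H3 along transcribed genes. MLL-AF9 leukaemia cells are known to need DOT1L for the high expression of Hoxa9, Meis1 and other targets of the fusion, and its loss is known to let them mature towards myeloid cells. In kidney cells MLLT6 is known to compete with AF9 for DOT1L and so to relieve repression of Scnn1a, the alpha subunit of the epithelial sodium channel, and in carcinoma cells it has been described as a regulator of PD-L1.

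All groups were MLL-AF9 leukaemia cells that express Cas9, the nuclease that cuts where a guide RNA directs it. Guides were delivered by lentivirus at an MOI of 0.3 (infectious particles per cell), and 2 ug/ml puromycin was applied for 72 hours, starting 48 hours after infection. RNA was taken on day 9. The other groups of the study carried guides against DOT1L, MLLT10 (2 guides) or MLLT1 (2 guides), and the DOT1L and MLLT10 knockouts serve below as comparisons. The labels give no cloning step, so a group can hold cells whose targeted gene was cut without loss of the protein. Nothing in the labels ties a replicate to a culture of its own, so each p-value reflects how these samples vary, and that variation may be technical.

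Totals in the 9 libraries ranged from 2403044 to 6773032 counts. The third library of MLLT6 guide 1 stood apart from the others: it was the deepest, and pseudogenes took 3.07% of its counts against 1.2 to 1.81% in the other 8. All 10 leukaemia identity markers, such as Ptprc, Kit and Hoxa9, were above 1 CPM (counts scaled to a common library size and normalised with TMM) in each of the 9 libraries. Among markers of other blood cells, Cd79a and Pax5 of B cells, Cd3e, Cd4 and Cd8a of T cells, and Alas2 of red cells had no count in any of the 9. Their marker lists held 6 of 10 (B cells), 8 of 13 (T and NK cells) and 8 of 20 (red cells and megakaryocytes) genes at 0. Summed levels were 2.5 to 4.53 CPM in the control and 2.21 to 6.2 CPM over both guides for the B cell list, and 218 to 300.0 CPM and 246 to 310.0 CPM for the red cell list. The T and NK list summed to 138 to 198 CPM in the control, 183 to 366 CPM with guide 1 and 187 to 246 CPM with guide 2, and most of it came from Nkg7, a granule gene of killer cells. The mast cell and basophil list, which shares Kit with the identity markers, had 5 of 11 genes at 0. It summed to 337 to 404 CPM in the control and 352 to 462 CPM over both guides. For dendritic cells (3 of 12 genes at 0) the sums were 362 to 484 CPM and 331 to 478 CPM. For stroma and endothelium (6 of 12 at 0) they were 357 to 463 CPM and 272 to 511 CPM. Only 2 of these 12 genes averaged 1 CPM or more over the 9 libraries, so the sum came almost wholly from them. In bulk RNA, fewer cells of a type and less RNA per cell cannot be told apart.

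Mllt6 mRNA itself (ENSMUSG00000038437, mm10 chromosome 11, 97663414 to 97685463, plus strand) was lower in every knockout library than in every control. It stood at 20.9, 23.3 and 14.9 CPM in the guide 1 libraries, 18.03, 19.1 and 17.1 CPM in the guide 2 libraries and 30.1, 42.2 and 32.7 CPM in the controls. The means were 18.9 ± 2.94 CPM (SD, n = 6) and 34.99 ± 6.39 CPM (n = 3), and no knockout library reached the lowest control. The log2 fold change was -0.90 with a 95% interval of -1.30 to -0.51. Of all genes, Mllt6 had the smallest p-value of the comparison, and after Benjamini-Hochberg adjustment over all genes by edgeR's quasi-likelihood test its adjusted p was 0.496, so it was not called. Without the filter on low counts the adjusted p of Mllt6 was 0.0274. An exact two-sided permutation test over the 9 libraries gave p = 0.0119, the smallest that 84 splits allow, and each guide on its own gave an exact p = 0.1, the smallest that 3 against 3 libraries allow.

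The levels under the guides overlapped. The log2 fold change of Mllt6 was -0.85 with guide 1 and -0.96 with guide 2, and the difference between them was 0.11 with an interval of -0.36 to 0.58. The files hold reads summed over the gene, and the annotation lists 6 transcripts of which 2 are protein coding, so the counts do not show where in the gene a guide cut or how much protein was left. Mllt6 was also at 17.8 ± 3.21 CPM (n = 3) in the DOT1L knockout, where its fold change against the control passed the test, as 21.8% of genes did there (log2 -0.998, adjusted p = 0.00214, edgeR). Between the MLLT6 and DOT1L knockouts the log2 difference of Mllt6 was 0.09 with an interval of -0.32 to 0.50. In the MLLT10 knockout Mllt6 stood at 29.8 ± 5.33 CPM (n = 6), and the MLLT6 knockout was lower by a log2 difference of -0.66 (-0.99 to -0.34, adjusted p = 0.044). That last call was lost when any of 10 single libraries was left out, with adjusted p between 0.0671 and 0.144.

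**Figure D1:**
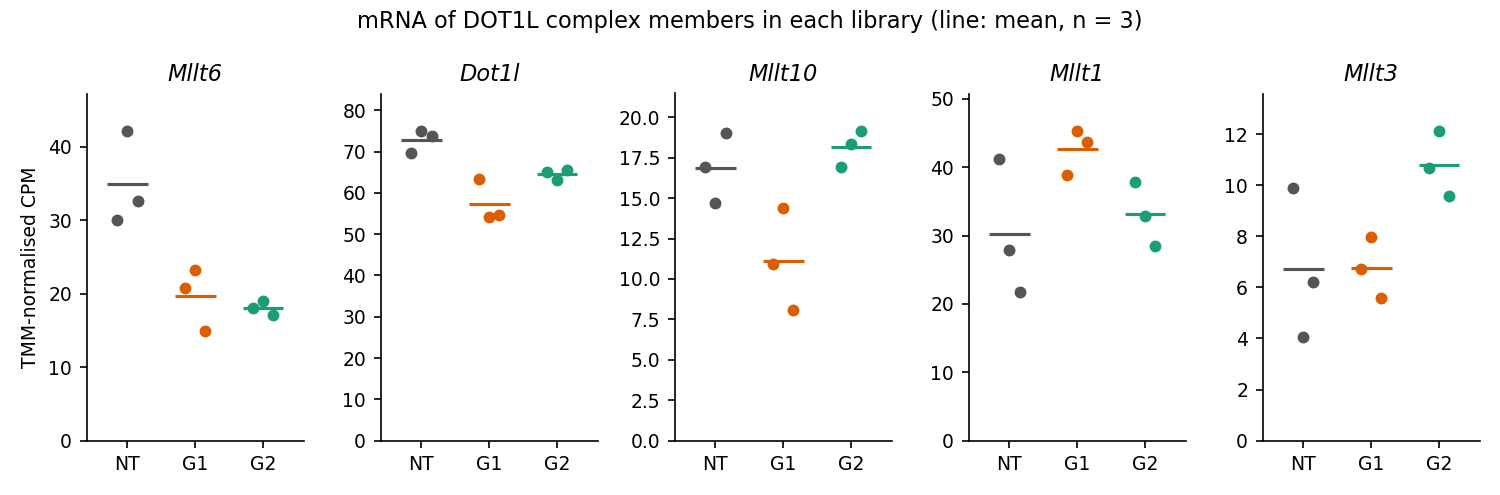
Levels of Mllt6, Dot1l, Mllt10, Mllt1 and Mllt3 in the 9 libraries, in TMM-normalised CPM on linear axes, 1 panel per gene, with a point per library and a line at the mean of the 3 libraries of the control (NT), guide 1 (G1) and guide 2 (G2). In the Mllt6 panel all 6 knockout libraries lie between 14.9 and 23.3 CPM, below the 3 controls at 30.1 to 42.2 CPM.

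None of the 8 genes of the DOT1L complex list passed the test, against a background of 0% of all 10578 genes. Of these, 2 (Mllt6 and Dot1l) were lower at an unadjusted p under 0.05, a mark reached by 3.48% of all genes in that direction. For 7 of the 8 the 95% interval lay inside a 2-fold change in either direction, and the median log2 fold change was -0.17 beside -0.0039 for all genes.

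Dot1l, the catalytic member, was at 63.3, 54.3 and 54.7 CPM under guide 1, 65.1, 63.1 and 65.6 CPM under guide 2 and 69.7, 75.1 and 73.9 CPM in the control libraries. All 6 knockout libraries were below the 3 controls. The log2 fold change of Dot1l was -0.26 (-0.48 to -0.04, adjusted p = 0.699). It was higher than in the DOT1L knockout, where the mean was 44.7 CPM, by a log2 difference of 0.45 (adjusted p = 0.0033). Without the filter on low counts that adjusted p was 0.0803.

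Mllt10, the paralog of Mllt6, was at 11.0, 14.4 and 8.06 CPM in the guide 1 libraries, 16.9, 18.4 and 19.2 CPM in the guide 2 libraries and 16.9, 14.7 and 19.1 CPM in the controls. The guide 1 libraries were below all controls, and the guide 2 libraries overlapped them. Over both guides the log2 fold change of Mllt10 was -0.25 (-0.70 to 0.19, adjusted p = 0.773), and the difference between the guides was -0.73 (adjusted p = 0.417). Mllt10 overlaps Dnajc1 on the opposite strand, and with no strand setting stated for the counting, reads of the pair cannot be told apart.

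Mllt1 (ENL) and Mllt3 (AF9) encode the YEATS-domain readers that link DOT1L and the super elongation complex to acetylated chromatin. Mllt1 ranged from 28.5 to 45.4 CPM in the 6 knockout libraries and from 21.8 to 41.2 CPM in the control, and its log2 fold change was 0.32 (-0.13 to 0.76, adjusted p = 0.744). Mllt3 ranged from 5.58 to 12.1 CPM in the knockout and from 4.07 to 9.89 CPM in the control, with a log2 fold change of 0.36 (-0.22 to 0.94, adjusted p = 0.766). Groups overlapped for both genes. Trrap, a large scaffold protein that has been found in DOT1L complex preparations, differed mainly by guide. It was at 14.8, 15.6 and 13.6 CPM under guide 1, 27.96, 24.6 and 27.9 CPM under guide 2 and 21.4, 26.3 and 31.9 CPM in the control libraries. Guide 1 libraries were below all others, and the log2 difference between the guides was -0.87 for Trrap (adjusted p = 0.412). Skp1a, an adaptor of ubiquitin ligases, and Npm1, the nucleolar chaperone nucleophosmin, had intervals of -0.15 to 0.44 and -0.39 to 0.21.

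Related gene families were examined next. The super elongation complex, which releases paused RNA polymerase II and shares MLLT1 and MLLT3 with the DOT1L complex, had 16 tested members, none at an unadjusted p under 0.05, and 15 with intervals inside 2-fold. Among 14 tested genes of the PHD finger paralog and JADE/BRPF list, which holds Mllt6 itself, 1 was lower at that mark and 11 had intervals inside 2-fold. Kat6a, an acetyltransferase bound by BRPF proteins, had a log2 fold change of -0.36 (-0.79 to 0.06), and Kat7, the other acetyltransferase that they and the JADE proteins guide, of 0.28 (-0.08 to 0.63).

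Across all 10578 genes, edgeR called 0 at an adjusted p under 0.05, a background of 0% in either direction. At an unadjusted p under 0.05 there were 727 genes, 6.87% of those tested, with 359 higher and 368 lower in the knockout. The DESeq2 test also called 0, with 739 at an unadjusted p under 0.05. Without the filter on low counts, edgeR tested 19354 genes and called 80, of which 53 were higher, 27 were lower and 37 are pseudogenes. When the third library of guide 1 was also left out, 24 were called, and when the third control library was, 18. With the filter, leaving out the third control library took the 727 genes to 258, leaving out the third library of guide 1 took them to 472, and leaving out the first control library took them to 1256.

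**Figure D2:**
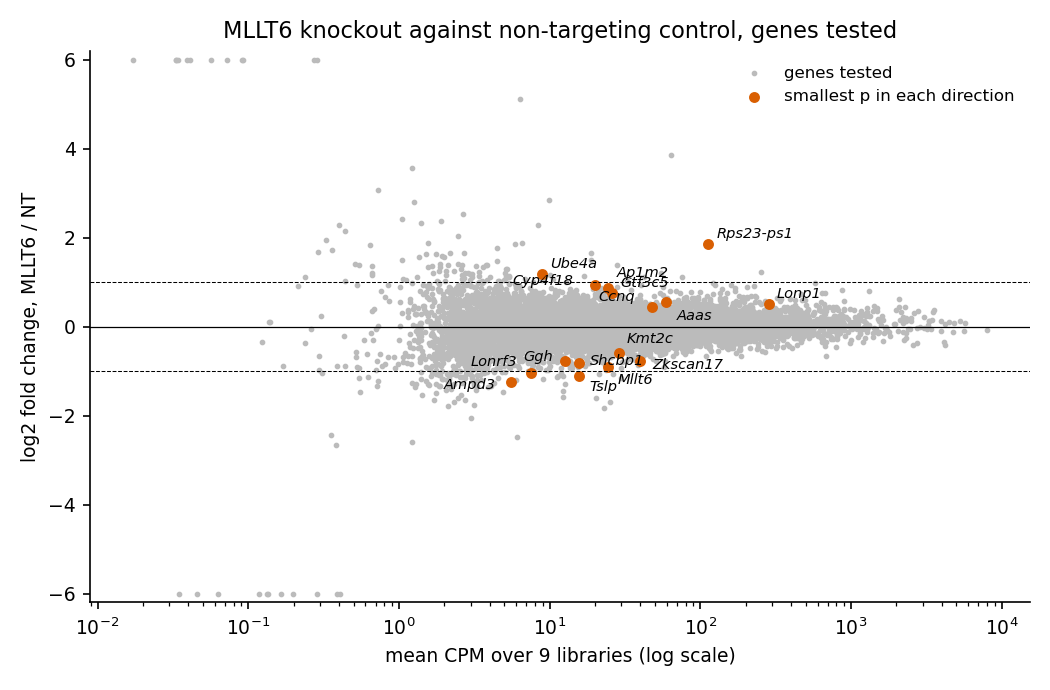
Log2 fold change of MLLT6 knockout against control (vertical axis) by mean level over the 9 libraries in CPM (log axis), 1 grey point per tested gene, with the ranked genes named in orange and dashed lines at a 2-fold change. Genes scatter around 0 and the spread narrows with level, and the 23 genes with no count in at least 1 but not all of the 3 groups of libraries, all under 0.41 CPM, are drawn at the edges of the axis.

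The count of 0 leaves the question of what size of change could have been missed. The median width of the 95% interval was 0.48 log2 units to either side, and the median absolute log2 fold change was 0.19. For 7872 genes (74.4%) the interval lay inside a 2-fold change in either direction, for 10151 (96%) inside 4-fold, and for 3876 (36.6%) inside 1.5-fold. These intervals are per gene. After adjustment over all genes, pairs of one-sided tests against the bounds placed 8258 genes inside 2-fold and 3229 inside 1.5-fold. Each one-sided test used a threshold of 0.05, which is looser than each side of a 95% interval. These counts are therefore not directly comparable with those from the intervals. No interval could be had for 31 genes: 23 had no count in at least 1 of the 3 groups of libraries, and the other 8 had none in all 9 libraries.

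Precision depended on level. Of 1445 genes under 5 CPM, 7.96% had an interval inside 2-fold, against 50% of 1175 genes at 5 to 10 CPM and 77% of 1596 genes at 10 to 20 CPM. Above 20 CPM the share was at least 91.4%, and it reached 94.8% of 2110 genes at 100 CPM or more. The interval lay inside a 1.5-fold change for 68.2% of genes in that highest class and for 1.28% at 5 to 10 CPM. At 5 to 10 CPM the median interval reached 1.65-fold to either side, and under 5 CPM it reached 2.1-fold.

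**Figure D3:**
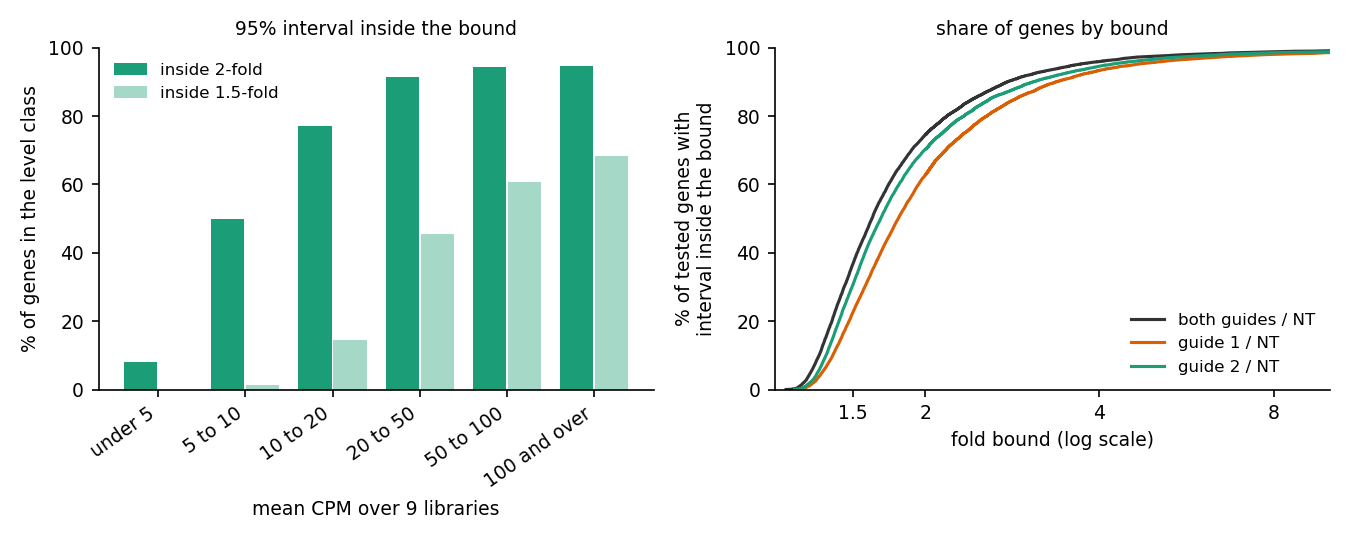
Left, the share of tested genes (%) whose 95% interval lies inside a 2-fold or 1.5-fold change, by class of mean level in CPM; right, the same share over all tested genes by the size of the bound (log axis), for both guides, guide 1 and guide 2 against the control (NT). The share inside 2-fold climbs from 7.96% under 5 CPM to 94.8% at 100 CPM or more, and over all genes it is 74.4% for both guides, 62.6% for guide 1 and 70.2% for guide 2.

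The genes that came nearest to the threshold are given next as ranked by p-value among genes that averaged 5 CPM or more. None of them passed the test, and 108 genes in all (1.02% of those tested) had all 6 knockout libraries above all 3 controls, while 142 (1.34%) had them all below.

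Ube4a, which extends ubiquitin chains, was the first of the higher genes. It stood at 12.4, 9.50 and 12.9 CPM in the guide 1 libraries, 10.7, 8.67 and 11.4 CPM in the guide 2 libraries and 6.60, 3.75 and 4.28 CPM in the controls. The groups did not overlap, and the log2 fold change of Ube4a was 1.18 (0.67 to 1.70, adjusted p = 0.496). The control was also the low group in the wider study, since the DOT1L and MLLT10 knockouts, measured against the same 3 libraries, had log2 fold changes of 1.26 (adjusted p = 0.00163) and 1.36 (adjusted p = 0.00721). Of all genes, 21.8% and 0.473% were called in those comparisons. The log2 difference of Ube4a between the MLLT6 and MLLT10 knockouts was -0.18.

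Gtf3c5, a subunit of the RNA polymerase III factor TFIIIC, was at 30.7, 33.7 and 39.1 CPM under guide 1, 23.9, 21.8 and 32.1 CPM under guide 2 and 18.6, 19.7 and 15.2 CPM in the control libraries. Both guides lay above the control throughout, guide 1 more so, and the log2 fold change was 0.75 (0.39 to 1.11, adjusted p = 0.545). Unlike Ube4a, Gtf3c5 was also higher than in the DOT1L knockout, by a log2 difference of 0.80 (adjusted p = 0.00125). The MLLT10 guides (25.7 and 27.45 CPM) and the MLLT1 guides (22.8 and 26.7 CPM) also had means above the control mean of 17.8 CPM. The mean of Gtf3c5 in the MLLT6 knockout was 30.2 CPM. Rps23-ps1, a processed pseudogene of a ribosomal protein gene, ranged from 79.7 to 228 CPM in the knockout and from 27.2 to 60.3 CPM in the control (log2 1.85, adjusted p = 0.545). The control was the low group here too, with a mean of 41.0 CPM against 74.1 CPM in the DOT1L knockout. The means were 102 and 96.6 CPM with the MLLT1 guides and 87.75 and 81.3 CPM with the MLLT10 guides. Rps23-ps1 was called without the filter on low counts, with an adjusted p of 7.35e-17. Reads of such a copy can be shared with its parent gene, so its value is uncertain.

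The other higher genes had smaller fold changes, each with an adjusted p of 0.699. Aaas, which encodes the nuclear pore protein aladin, had means of 66.4 CPM and 44.6 CPM (log2 0.56), and Ap1m2, a clathrin adaptor subunit, of 28.9 CPM and 15.7 CPM (log2 0.88). For Aaas the control was again the low group, with means of 62.1 to 72.1 CPM in the other knockout groups. Ap1m2 had means of 28.4 and 28.8 CPM with the MLLT1 guides. They were 19.7 and 18.6 CPM with the MLLT10 guides and 16.75 CPM in the DOT1L knockout. Ccnq, the cyclin partner of CDK10, differed by a log2 value of 0.43, and its lowest knockout library at 40.2 CPM was under the highest control at 44.1 CPM. Cyp4f18, a cytochrome P450 that acts on leukotrienes, had a log2 fold change of 0.94, and it overlaps Zfp961 on the opposite strand. Lonp1, the mitochondrial Lon protease, had a log2 fold change of 0.50, with 493.1 CPM in the third library of guide 1 and at most 346 CPM in the other 5 knockout libraries.

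Among the lower genes, Shcbp1, which binds the adaptor SHC1 and is made in dividing cells, came first after Mllt6. It stood at 13.8, 12.9 and 16.6 CPM in the guide 1 libraries, 8.83, 9.71 and 13.5 CPM in the guide 2 libraries and 25.1, 19.7 and 21 CPM in the controls. Every knockout library was below every control, and the log2 fold change of Shcbp1 was -0.81 (-1.21 to -0.41, adjusted p = 0.545). Here the MLLT6 knockout was the low group: the means of the other knockout groups were 18.8 to 21.8 CPM, and the log2 difference from the DOT1L knockout was -0.80 (adjusted p = 0.00223) and from the MLLT10 knockout -0.60 (adjusted p = 0.0863).

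Lonrf3, a RING finger protein with a LON domain, was at 6.36, 3.68 and 4.50 CPM under guide 1, 4.05, 7.63 and 7.49 CPM under guide 2 and 10.3, 11.0 and 12.8 CPM in the control libraries. The groups did not overlap, and the log2 fold change of Lonrf3 was -1.03 (adjusted p = 0.545). Ampd3, an AMP deaminase of red and myeloid cells, was at 3.18, 3.37 and 2.95 CPM in the guide 1 libraries, 2.21, 6.24 and 4.79 CPM in the guide 2 libraries and 8.24, 6.57 and 12.1 CPM in the controls. Its highest knockout library lay just under its lowest control, and the log2 fold change was -1.25 (-1.89 to -0.62, adjusted p = 0.55). Ampd3 was at 32.4 CPM in the DOT1L knockout and at 8.82 CPM in the MLLT10 knockout, so that the MLLT6 knockout was lower than either, by log2 differences of -3.12 (adjusted p = 3.86e-09) and -1.20 (adjusted p = 0.0179). The call against MLLT10 was lost without the third library of MLLT6 guide 1 (adjusted p = 0.0554) or the third of MLLT10 guide 1 (0.055). Ampd3 overlaps Rnf141 on the opposite strand.

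Tslp, a cytokine of the interleukin 7 family, had means of 11.2 CPM in the knockout and 24.6 CPM in the control (log2 -1.12, adjusted p = 0.699), with knockout libraries from 7.28 to 15.4 CPM and controls from 16.9 to 31.3 CPM. The adjusted p of Tslp was 0.0162 without the filter on low counts. Its mean was 6.62 CPM in the DOT1L knockout, 20.96 CPM in the MLLT10 knockout and 5.38 and 5.63 CPM with the MLLT1 guides. All of these were below the mean of the same controls, but the MLLT10 libraries, at 15.7 to 26.2 CPM, overlapped the controls. Zkscan17, a zinc finger protein, stood at 32.3 CPM against 55.0 CPM (log2 -0.78), and Kmt2c, the histone H3 lysine 4 methyltransferase MLL3, at 24.6 CPM against 37.2 CPM (log2 -0.60). For Ggh, which cleaves the glutamate tail of folates, the values were 10.2 CPM and 17.4 CPM (log2 -0.78). The last 3 had no overlap between groups, an adjusted p of 0.699 each, and means in all other knockout groups below the control as well. Those groups were measured against the same 3 control libraries.

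The comparison of the guides asks whether they gave the same profile. Guide 1 against the control had 0 called genes in edgeR's test (0% of those tested) with 1389 (13.1%) at an unadjusted p under 0.05, and guide 2 had 0 called with 286 (2.7%). DESeq2 called 14 genes for guide 1 and 0 for guide 2. Both comparisons use the same 3 control libraries, so the guides were also tested against each other, which leaves the control out. Guide 1 against guide 2 had 0 called genes (0%), 983 (9.29%) at an unadjusted p under 0.05, and 7 called by DESeq2. The 95% interval of the guide difference lay inside 2-fold for 7054 genes (66.7%). Without the third library of guide 1, the 1389 genes became 567 and the 983 became 434.

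The smallest p-value between the guides belonged to Pdpk1, the kinase that activates AKT. Pdpk1 was at 39.2, 27.3 and 22.2 CPM under guide 1, 57.0, 61.0 and 66.2 CPM under guide 2 and 54.8, 46.0 and 57.2 CPM in the control libraries. Guide 1 libraries were below all others while guide 2 libraries overlapped the control or lay above it. The log2 difference between the guides was -1.07 (-1.46 to -0.69, adjusted p = 0.0894 with edgeR and 0.000288 with DESeq2). For Pdpk1 the value without the first library of guide 1 was -1.32, with an adjusted p of 0.00644.

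Emd, which encodes the nuclear envelope protein emerin, was at 42.1, 35.9 and 27.8 CPM with guide 1, between 61.8 and 62.9 CPM with guide 2 and between 52.6 and 63.1 CPM in the control. Here too guide 1 stood alone, and the difference was -0.84 (adjusted p = 0.383, DESeq2 0.0163). Susd3, a sushi domain protein, went the other way, with 65.0, 79.1 and 81.9 CPM with guide 1, 43.1 to 46.8 CPM with guide 2 and 38.8 to 50.4 CPM in the control (log2 0.74, adjusted p = 0.39, DESeq2 0.0474). For Idua, a lysosomal iduronidase, guide 1 ranged from 60.8 to 83.4 CPM, guide 2 from 35.3 to 48.2 CPM and the control from 45.8 to 60.1 CPM (log2 0.79, adjusted p = 0.39, DESeq2 0.0163). Idua overlaps Dgkq and Slc26a1 on the opposite strand. Pdpk1, Emd, Susd3 and Idua were taken by their p-value between the guides.

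**Figure D4:**
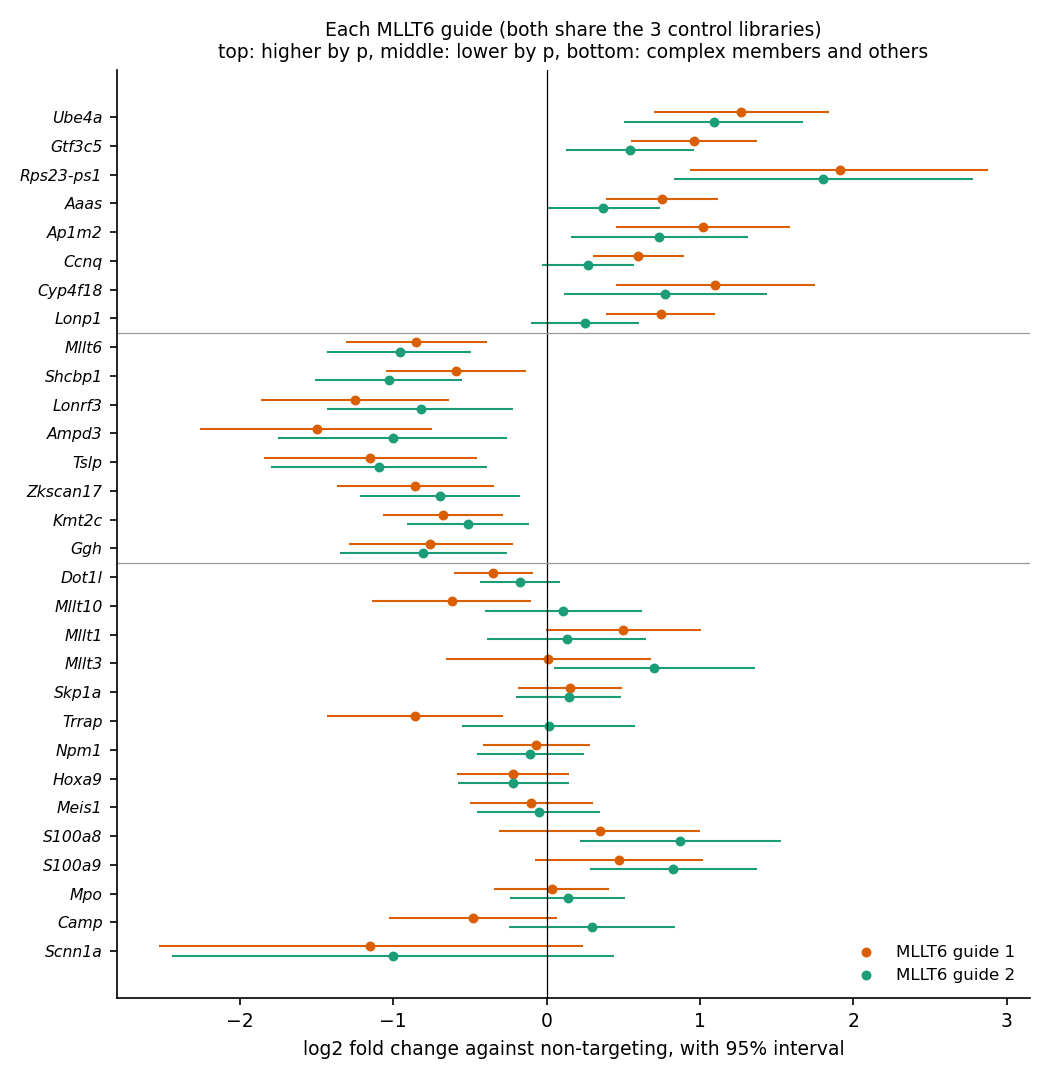
Log2 fold change against the control (points) with its 95% interval (lines) for guide 1 and guide 2, which share the 3 control libraries, for the 8 higher genes (top), the 8 lower genes (middle) and the complex and anchor genes (bottom). Mllt6 lies at -0.85 and -0.96 for the guides, while Trrap lies at -0.86 with guide 1 and 0.01 with guide 2.

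None of the tested genes that MLL-AF9 is known to keep on passed the test. Hoxa9, the homeobox gene that drives self-renewal in these cells, was at 219.8, 277 and 282 CPM in the guide 1 libraries, 248, 255 and 279 CPM in the guide 2 libraries and 271, 272 and 365 CPM in the controls. The groups overlapped, and the log2 fold change of Hoxa9 was -0.22 (-0.53 to 0.10, adjusted p = 0.747), so that a 2-fold reduction lies outside the interval. Meis1, its cofactor, had means of 90.1 ± 8.37 CPM and 94.96 ± 11.9 CPM and a log2 fold change of -0.08 (-0.42 to 0.27, adjusted p = 0.922). Of 27 tested MLL fusion targets, none was at an unadjusted p under 0.05 and 24 had intervals inside 2-fold, with a median log2 fold change of -0.08 and a range of -0.49 to 0.33. The targets with the smallest p-values were Eya1 (log2 -0.40), Pbx3 (-0.28) and Hoxa5 (-0.24), all transcription factors or their coactivators. Eya1 was lower in all 6 knockout libraries (at most 107 CPM) than in all controls (at least 114 CPM), with an adjusted p of 0.7. Of 6 tested Hoxa genes, 5 had intervals inside 2-fold, and of 21 stem and progenitor genes, 17.

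The neutrophil list, whose genes encode granule and antimicrobial proteins, held members on the higher side. S100a8, a subunit of calprotectin, was at 112, 70.5 and 87.6 CPM under guide 1, 219.7, 95.3 and 72.8 CPM under guide 2 and 97.7, 53.2 and 61.4 CPM in the control libraries. The groups overlapped, the first library of guide 2 was far above the rest, and the log2 fold change of S100a8 was 0.61 (0.04 to 1.18, adjusted p = 0.699). For S100a9, its partner, the log2 fold change was 0.65 (0.17 to 1.13, adjusted p = 0.699), with 180.7 CPM in that same library. Replicate 1 was the highest library for S100a8 and S100a9 in the control and in each guide, and within each replicate number both guides were above the control. When replicate number entered as a block, both genes had an adjusted p of 0.502. Without the filter on low counts the adjusted p of S100a9 was 0.0469.

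Wfdc21, a secreted antimicrobial-type protein, was at 6.01, 2.45 and 8.06 CPM in the guide 1 libraries, 8.46, 6.24 and 3.595 CPM in the guide 2 libraries and 2.89, 0.63 and 1.94 CPM in the controls. All but the second library of guide 1 exceeded the highest control, and the log2 fold change was 1.77 (0.83 to 2.72, adjusted p = 0.545, and 0.000254 without the filter on low counts). Stfa3, a cystatin of mature neutrophils, had means of 3.34 CPM and 0.68 CPM (log2 2.04, adjusted p = 0.699). These means rest on 63 counts in the knockout and 6 in the control, whose libraries were at 0.41, 1.25 and 0.39 CPM. Stfa3 passed the filter only through other groups, since it was not tested when the compared groups were fitted alone. The adjusted p of Stfa3 was 0.0261 without the filter on low counts, and its log2 value was 2.90 without the second control library. Itgb2l, an integrin subunit of the same cells, had means of 2.23 CPM and 4.69 CPM (log2 -1.17, adjusted p = 0.699). In all, 4 of 32 tested neutrophil genes were higher and 2 were lower at an unadjusted p under 0.05, a mark reached by 3.39% and 3.48% of all genes. Their median log2 fold change was 0.11 and 15 of the 32 had intervals inside 2-fold, while 1 of them, Retnlg, had no count in the 9 libraries.

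Mpo and Camp, which mark granules, had values near those of the control. Mpo, the peroxidase of primary granules, had means of 362 ± 46.2 CPM and 341 ± 61.4 CPM and a log2 fold change of 0.09 (-0.24 to 0.41, adjusted p = 0.901). Camp, the cathelicidin of secondary granules, had means of 61.0 CPM and 62.7 CPM (log2 -0.09, interval -0.57 to 0.38). Its log2 fold change was -0.48 with guide 1 and 0.30 with guide 2, and the difference between the guides was -0.78 (adjusted p = 0.414). None of 19 monocyte and macrophage genes was at an unadjusted p under 0.05. Among 15 myeloid transcription factors, Gfi1, a repressor needed for neutrophil formation, was lower (143 CPM against 197 CPM, log2 -0.47), and Cebpa, a master regulator of granulocytes, was higher (119 CPM against 87.7 CPM, log2 0.43). Both had overlapping groups and an adjusted p of 0.699.

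Among chromatin genes outside the complex, those nearest to the threshold were lower. Of 37 histone methyltransferases and demethylases, 4 were lower and 0 higher at an unadjusted p under 0.05 (3.48% and 3.39% of all genes), with a median log2 fold change of -0.10 and intervals inside 2-fold for 32. Beside Kmt2c these were Ash1l, a methyltransferase of histone H3 lysine 36 (log2 -0.85), Kdm3a, a lysine 9 demethylase (log2 -0.78), and Kdm2a, a lysine 36 demethylase (log2 -0.37), with an adjusted p of 0.699 each. With guide 2 alone the log2 fold change of Kdm2a was -0.04.

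In the cell cycle lists most intervals lay inside 2-fold. Of 35 DNA replication genes, 5 were higher and 0 lower at an unadjusted p under 0.05, a mark reached by 3.39% and 3.48% of all genes, with a median log2 fold change of 0.13 and intervals inside 2-fold for 33. They include Pole, the catalytic subunit of DNA polymerase epsilon (70.3 CPM against 53.4 CPM, log2 0.39), and Uhrf1, which helps to copy DNA methylation (179.7 CPM against 133 CPM, log2 0.43). Orc1 of the origin recognition complex had a log2 fold change of 0.51 and Prim1, a primase subunit, of 0.43. Of 29 mitosis genes, 2 were lower and 0 higher at that mark (median -0.09, 27 inside 2-fold): Cenpa, the centromeric histone (log2 -0.44), and Ect2, which organises cytokinesis (log2 -0.41). Adjusted p was 0.699 for each of these 6 genes.

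The same held for growth and metabolism lists. Intervals inside 2-fold were found for 30 of 32 ribosomal protein genes, 23 of 25 genes of ribosome biogenesis, 25 of 29 of oxidative phosphorylation, 24 of 27 of cholesterol and fatty acid synthesis and 19 of 21 of the lysosome. At an unadjusted p under 0.05, 3 oxidative phosphorylation genes were higher and 1 was lower, beside 3.39% and 3.48% of all genes. The ribosomal protein list had 1 in each direction. Ribosome biogenesis and lipid synthesis had 1 higher each, and the lysosome none. In the ATF4 and amino acid response, 4 of 23 genes were higher at an unadjusted p under 0.05 and none lower, beside 3.39% and 3.48% of all genes. Sesn2, an inhibitor of mTORC1 that senses leucine, had means of 8.89 CPM and 5.21 CPM (log2 0.79). Trib3, a pseudokinase induced by ATF4, had a log2 fold change of 0.48, Atf5 of 0.63 and Gars, the glycyl-tRNA synthetase, of 0.37, each with an adjusted p of 0.699. Of 29 glycolysis genes, Slc2a3, a glucose transporter, was lower in all 6 knockout libraries than in the control (60.9 CPM against 86.1 CPM, log2 -0.50, adjusted p = 0.699). Gapdh, whose many pseudogenes can share its reads, was counted at 5.70 CPM against 2.05 CPM, and its value is uncertain.

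Stress and survival lists held few genes near the threshold. Of 16 p53 targets, 1 was higher at an unadjusted p under 0.05 (Sesn2, which is also in the ATF4 list), beside 3.39% of all genes, and 8 had intervals inside 2-fold. None of 16 apoptosis regulators was at that mark, and 14 had intervals inside 2-fold. Of 18 immediate early genes, Dusp6, a phosphatase that switches off ERK, was higher at that mark (log2 0.40, adjusted p = 0.699).

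PD-L1 could not be assessed at this depth. Cd274, its gene, was below the filter, with a mean of 0.71 CPM in the knockout and 0.79 CPM in the control, and 1 control library had no count, which allows up to 0.938 CPM there. Of 17 tested genes of the interferon and PD-L1 list, 1 was higher and 2 were lower at an unadjusted p under 0.05, beside 3.39% and 3.48% of all genes. These were Ifngr1, a chain of the interferon gamma receptor (1075 CPM against 811 CPM, log2 0.40), Jak2, the kinase that the receptor uses (12.7 CPM against 19.6 CPM, log2 -0.64), and Ddx58, the RNA sensor RIG-I (log2 -0.47). All 3 had an adjusted p of 0.699. None of 12 genes of MHC class I presentation was at an unadjusted p under 0.05, and 11 had intervals inside 2-fold. Of 8 tested genes of MHC class II presentation, 1 was higher and 0 lower at that mark, beside 3.39% and 3.48% of all genes. Their median log2 fold change was -0.04, with a range of -0.86 to 1.30 and intervals inside 2-fold for 4. The higher gene was Cd74, the invariant chain of MHC class II, at 6.46 CPM against 2.63 CPM (log2 1.30, adjusted p = 0.699). Its groups overlapped, with 3.18 to 12.9 CPM in the knockout and 1.56 to 4.28 CPM in the control. The highest value was in the third library of guide 1, and the control libraries held 21 counts of Cd74 in all. Among 9 tested chemokine and cytokine genes, Ccl9 was higher at that mark, with 112 CPM against 82.9 CPM (log2 0.43, adjusted p = 0.699).

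Scnn1a, the sodium channel gene tied to MLLT6 in kidney cells, was barely expressed. It was at 2.47, 0.61 and 1.55 CPM under guide 1, 2.58, 1.04 and 1.498 CPM under guide 2 and 0.41, 4.07 and 5.44 CPM in the control libraries. The first control library lay below every knockout library and the other two above, and the log2 fold change of Scnn1a was -1.07 with an interval of -2.26 to 0.12 (adjusted p = 0.7). Tsc22d3, a glucocorticoid and aldosterone target, was at 39.6 CPM against 59.5 CPM (log2 -0.59, adjusted p = 0.699), with 1 control library inside the knockout range. The Wnt target list, named because DOT1L complexes have been linked to beta-catenin, had 6 tested genes, none at an unadjusted p under 0.05, and 2 with intervals inside 2-fold.

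The DOT1L knockout shows what the same cells and protocol give when the enzyme itself is targeted. Directly compared, the MLLT6 and DOT1L knockouts differed in 3100 genes (29.3% of those tested), of which 1484 (14%) were higher in the MLLT6 knockout and 1616 (15.3%) were lower. A 2-fold difference or more was found for 718 and 766 of these. Neutrophil and Hoxa genes were among them. Of 32 tested neutrophil genes, 31 were lower in the MLLT6 knockout and 1 was higher, beside those backgrounds of 15.3% and 14%. All 6 tested Hoxa genes were higher, and of 27 MLL fusion targets 15 were higher and 3 lower. The filter on low counts took in all 8 groups, so a gene could be tested through a high level in 1 group alone. Retnlg, for example, had no count in the MLLT6 libraries. For genes that entered through only 1 side of this comparison, the direction followed from the filter, and how many did so was not tested.

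**Figure D5:**
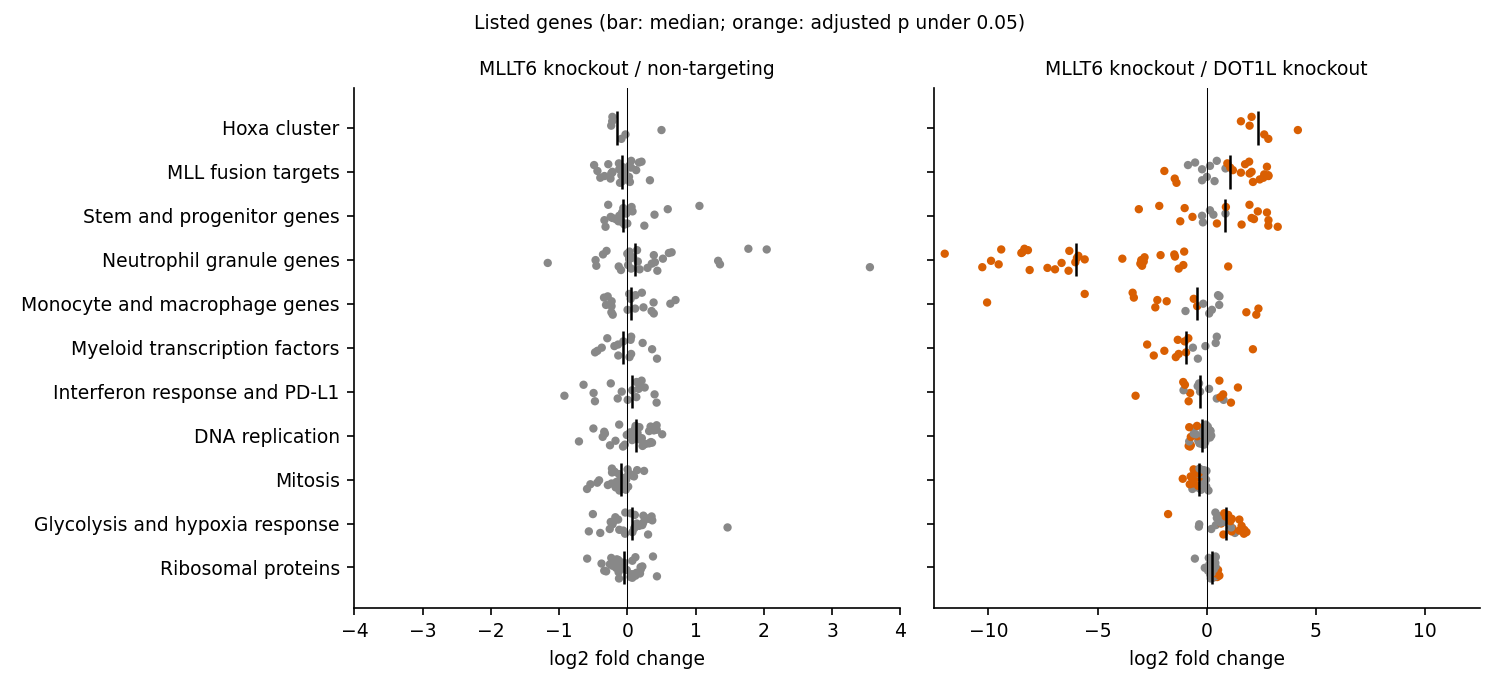
Log2 fold changes of the tested members of 11 gene lists, 1 point per gene with a bar at the median, for the MLLT6 knockout against the control (left) and against the DOT1L knockout (right), orange where the adjusted p was under 0.05 and with 1 gene that had no count in the MLLT6 libraries drawn at the left edge. On the left no gene is orange and the medians are -0.15 for the Hoxa cluster and 0.11 for neutrophil genes, and on the right all 6 Hoxa genes lie above 0 and 31 of 32 neutrophil genes below it.

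Lyz2, the lysozyme of myeloid cells, was between 52.4 and 69.6 CPM in the 6 MLLT6 knockout libraries and between 53.5 and 64.2 CPM in the control, and the DOT1L knockout libraries gave 2244, 3405 and 3013 CPM. The MLLT6 libraries thus lay with the control, and the log2 difference from the DOT1L knockout was -5.59 ± 0.153 (SE, adjusted p = 1.21e-17). For S100a9 that difference was -8.45 and for Camp -8.11. In the other direction, Cdkn2c, an inhibitor of CDK4 and CDK6, was at 187 ± 22.7 CPM in the MLLT6 knockout and at 34.99 CPM in the DOT1L knockout (log2 2.42 ± 0.149, adjusted p = 6.06e-11). Hoxa9 was higher by 2.05 (adjusted p = 2.46e-09) and Meis1 by 2.75 (adjusted p = 3.02e-10). Scnn1a, at 38.9 CPM in the DOT1L knockout, was lower in the MLLT6 knockout by a log2 difference of -4.61 (adjusted p = 1.89e-08).

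MLLT10 is the nearest relative of MLLT6, and 6 libraries stand on each side. Here 81 genes differed (0.766% of those tested), 37 higher in the MLLT6 knockout (0.35%) and 44 lower (0.416%), with 11 and 25 at 2-fold or more. DESeq2 called 161. When each library was left out in turn, edgeR called between 45 and 72 genes, with the fewest without the second library of MLLT6 guide 2. Of 32 tested neutrophil genes, 11 were lower in the MLLT6 knockout and none was higher. The limit that the filter sets on this list, given for the DOT1L knockout, holds here too.

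Lpxn, an adhesion adaptor of the paxillin family, had the smallest adjusted p, 9.57e-06. It was between 58.3 and 85.7 CPM in the MLLT6 knockout, between 15.4 and 30.5 CPM in the MLLT10 knockout, and between 64.9 and 82.9 CPM in the control. The MLLT6 libraries overlapped the control and not the MLLT10 libraries, and the log2 difference of Lpxn was 1.71 ± 0.172 (SE). Abcb4, a phospholipid transporter, was higher by 1.92 (adjusted p = 0.000534), and Aff3, a member of the AFF family of elongation factors, by 1.17 (adjusted p = 0.000817). For Lpxn the MLLT6 knockout against the control had a log2 fold change of -0.03 (-0.46 to 0.39). That of Abcb4 was 0.08.

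Among the genes lower than in the MLLT10 knockout, Mpo stood at 311.7 to 433 CPM in the MLLT6 knockout and at 668 to 975 CPM in the MLLT10 knockout, with no overlap (log2 -1.24 ± 0.127, adjusted p = 9.57e-06). Wfdc21 was at 5.80 ± 2.39 CPM against 19.8 ± 2.91 CPM (log2 -1.75, adjusted p = 0.00011), and Mgl2, a macrophage lectin, at 12.04 CPM against 46.5 CPM (log2 -1.99, adjusted p = 0.00011). F13a1, the coagulation factor XIII chain of monocytes, was lower by a log2 difference of -1.48 (adjusted p = 0.000324), S100a8 by -1.34 (adjusted p = 0.00192) and Camp by -1.33 (adjusted p = 0.000329). Hoxa9 did not pass the test, with 260.1 CPM against 203.5 CPM and a log2 difference of 0.36 (adjusted p = 0.255). Scnn1a was lower by -2.04 (adjusted p = 0.0179), and that call was lost without any of 6 single libraries, with adjusted p from 0.0506 to 0.0829.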

How the data were processed

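RNA-seq was analysed from the authors' deposited table of raw read counts per gene, which holds 43629 Ensembl genes and 24 libraries. Per the submitters' processing notes, bcl2fastq, HISAT2, HTSeq and DESeq2 were used with mm10; which annotation and strand setting they ran with is not given in the sources used here. Columns were assigned by sample title. GENCODE M21 gave symbols and positions for 42548 identifiers, and 1081 had none. Among other named genes, Atf5 (with Nup62 and Il4i1) and Ash1l (with Dap3) also overlap genes on the opposite strand. Hoxa5 overlaps Hoxa3 on the same strand.

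edgeR 4.0.16 in R 4.3.3 (TMM, filter on low counts by group, 1 quasi-likelihood fit of all 8 groups) tested the mean of both MLLT6 guides against the control, each guide, the guides against each other, and MLLT6 against the DOT1L and MLLT10 knockouts, 6 comparisons in all, and for values set beside them the DOT1L and MLLT10 knockouts against the control, with Benjamini-Hochberg adjustment over 10578 genes and a threshold of 0.05. Intervals are 95% intervals of the unshrunk log2 fold change, CPM are TMM-normalised, and the script was tested on simulated data. Alternatives were DESeq2 1.42.0 (size factors and test), no filter on low counts, the replicate number as a block, the compared groups alone, a 1.5-fold bound and leaving out each library. Leaving out libraries that stood apart, also without the filter, was added after seeing the data.

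Libraries entered by label. The comparison and the members of the 35 gene lists (671 of 672 genes found) were chosen with earlier results of these data known. Named genes were the DOT1L complex, the 8 higher and 8 lower genes with the smallest p at 5 CPM or more, up to 4 members of a list with the smallest p, 8 anchor genes, and genes called between knockouts; the 4 genes for the guide difference were added later. Same-numbered libraries of the control and MLLT6 guide 2 deviated together (correlations across genes 0.32, 0.161 and 0.407), while those of the control and guide 1 did not (0.0846, -0.0639 and -0.31); the labels do not say what a number marks. A few named genes are not reported here.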

Additional observations from a re-analysis of the deposited data

Results flagged for a closer look

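Among 35 values checked for a library far from the other 5 of the MLLT6 knockout, 4 were marked, and chance marks about 1 in 20 such groups. S100a8 was at 219.7 CPM and S100a9 at 180.7 CPM in the first library of MLLT6 guide 2, where the next highest libraries had 111.7 and 101.8 CPM. The third library of MLLT6 guide 1 held 6773032 counts, against at most 3213593 in the other 5, and pseudogenes took 3.07% of its counts, against at most 1.81%.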

How the results depend on the processing

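The comparison of the MLLT6 knockout with the control had 0 called genes under DESeq2's test, DESeq2 size factors and the replicate block. It also had 0 with the compared groups alone and without each library in turn (0 to 0). Leaving out replicate 3 of MLLT6 guide 1 and replicate 1 of MLLT1 guide 1 together gave 0 too. The MLLT1 library is not part of this comparison, so that setting removed only replicate 3 of MLLT6 guide 1 from it. Without the filter on low counts 80 were called; with that and without replicate 3 of guide 1, 24 (22 of them among the 80), and with that and without NT replicate 3, 18 (15 among the 80). For guide 1 the counts were 291, 21 and 42 under these settings, 14 with DESeq2's test, and 0 to 31 when a library was left out (31 without replicate 1 of guide 1). For guide 2 they were 19, 20 and 20, and 0 to 0 without each library. Between the guides they were 67, 19 and 68, 7 with DESeq2's test and 0 to 1 without each library. Against the MLLT10 knockout 272 genes were called without the filter, 161 with DESeq2's test and 45 to 72 without each library; against the DOT1L knockout 2279 to 3140 without each library. Genes with intervals inside 2-fold numbered 6695 to 7985 without each library, 3876 for a 1.5-fold bound and 3229 for its adjusted tests. With the replicate number as a block no call changed in the 4 comparisons of MLLT6 guides and control (0 in each), 8070 genes had intervals inside 2-fold, and 3464 and 114 genes were called against DOT1L and MLLT10. Of 149 gene results under these settings, 14 values in 8 genes changed sign, 19 became called and 26 lost the call. Against the control, leaving out each library gave Npm1 values of -0.206 to 0.0813, Camp -0.26 to 0.0116, Meis1 -0.144 to 0.025, Mpo -0.0501 to 0.17, Myc -0.965 to 0.439 and Znrf3 -0.156 to 0.363. Without both the filter and NT replicate 3, Mpo was at -0.0462, Ctss at 0.00273, Myc at 0.442 and Znrf3 at -0.152. Mllt6 against the DOT1L knockout ranged from -0.0661 to 0.185. None of these sign changes concerned a called value, and the cause of the changes was not tested. Intervals inside 2-fold were fewest among genes of few counts (7.96% under 5 CPM); how far depth and the spread between replicates each set this was not tested.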
